A study of Mus musculus with 16 samples.

Results

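The regions described here are places at the ends of protein-coding genes where acetylation of lysine 27 of histone H3 (H3K27ac) was called in Mettl14 knockout cells alone. The peaks of the 4 H3K27ac lists were merged into 36453 regions. Of these, 1298 (3.56%) had a peak in each of the knockout lists and none in the Control lists. Of the 1298, 515 touched a window of 1 kb either side of an end of a protein-coding gene in the RefSeq annotation of mouse build mm10, and these 515 are the members. They were 6.61% of the 7797 H3K27ac regions at gene ends and 19.9% of the 2584 such regions called in both knockout lists. The members were thus chosen by the H3K27ac calls of the 4 lists, so their H3K27ac values are given as a description with no test.

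The cells were mouse embryonic stem cells of the C57BL/6 strain, grown in serum medium with the cytokine LIF, the GSK3 inhibitor CHIR99021 and the MEK inhibitor PD0325901. Mettl14 knockout cells (titled CKO, KO in the figures) were set against Mettl14 Control cells, with 2 ChIP-seq libraries per condition for each of H3K27ac, H3K4me3 and H3K27me3. All libraries, in both conditions, were made from formaldehyde-fixed chromatin with spike-in chromatin added. The labels do not say how the knockout was produced, which cells or clones were used, or whether the replicates were separate cultures. In their labels, the libraries titled H3K27ac list an antibody against H3K4me3, and the mark of the title was used.

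METTL14 forms with METTL3 the complex that writes N6-methyladenosine on RNA, a mark that shortens the life of many transcripts in embryonic stem cells. H3K27ac is written by the acetyltransferases p300 and CBP and marks active promoters and enhancers. H3K4me3 is written by SET1 and MLL complexes at the starts of active genes, often at CpG islands. H3K27me3, written by Polycomb repressive complex 2, sits on the same lysine as H3K27ac and marks silent developmental genes.

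The H3K27ac lists held 15271 and 15058 peaks in knockout cells and 15541 and 13520 in Control cells. The H3K4me3 lists held 8131 and 8055 peaks in knockout cells and 2859 and 2431 in Control cells, and the H3K27me3 lists 11349 and 11446 against 6312 and 7203. A mark carried by fewer cells and a weaker mark in every cell cannot be told apart in such lists, and the lists hold no read numbers, so the depth is unknown. Naive and core pluripotency genes bore H3K27ac in these cells: 16 of 25 listed genes had a gene-end region in both knockout lists, and 12 of 25 had one called in all 4 lists. None of 23 lineage regulators and none of 10 primitive endoderm markers had a region in both knockout lists. Of 10 fibroblast markers 1 had such a region, and of 10 trophectoderm markers 2, Gata3 and Tfap2c, did. The ends of the Mettl14 gene cannot check the knockout, and Mettl14 was not a member, since it had an H3K27ac peak of 501 bp in Control replicate 1.

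The promoters of genes at 7 members show the kind of sequence at or near the called acetylation. Dyrk1a and Sqstm1 are among the widest members, and the others belong to the DNA replication and cell cycle genes described further on. Each runs from 250 bases before to 50 bases after the RefSeq start (GRCm38.p6), 5′ to 3′ on the gene's strand. Capitals mark letters of the searched motifs on either strand: the GC box GGGCGG, the CCAAT box, the ETS motif CCGGAAG, the cAMP response element TGACGTCA and the TATA box TATAAA.
Dyrk1a, chr16:94569956-94570255, plus strand: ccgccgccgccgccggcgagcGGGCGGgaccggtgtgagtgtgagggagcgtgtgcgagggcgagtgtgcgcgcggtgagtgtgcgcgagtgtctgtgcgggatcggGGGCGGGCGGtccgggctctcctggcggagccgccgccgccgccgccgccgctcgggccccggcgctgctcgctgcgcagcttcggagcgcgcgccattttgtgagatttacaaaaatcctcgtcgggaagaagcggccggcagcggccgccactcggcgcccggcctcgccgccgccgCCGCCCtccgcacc
Sqstm1, chr11:50210771-50211070, minus strand: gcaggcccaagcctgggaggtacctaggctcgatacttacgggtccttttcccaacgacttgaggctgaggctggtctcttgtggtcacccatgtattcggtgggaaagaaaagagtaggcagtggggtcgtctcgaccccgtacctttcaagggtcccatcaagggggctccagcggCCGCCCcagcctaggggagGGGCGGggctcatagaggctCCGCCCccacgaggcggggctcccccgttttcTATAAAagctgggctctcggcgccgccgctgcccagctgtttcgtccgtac
Mcm3, chr1:20820263-20820562, minus strand: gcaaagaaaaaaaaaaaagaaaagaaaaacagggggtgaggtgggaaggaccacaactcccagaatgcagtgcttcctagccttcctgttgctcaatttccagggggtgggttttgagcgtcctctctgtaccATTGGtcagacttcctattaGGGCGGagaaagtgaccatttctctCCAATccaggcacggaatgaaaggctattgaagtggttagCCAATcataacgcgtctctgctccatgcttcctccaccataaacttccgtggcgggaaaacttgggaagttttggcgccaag
Orc5, chr5:22550289-22550588, minus strand: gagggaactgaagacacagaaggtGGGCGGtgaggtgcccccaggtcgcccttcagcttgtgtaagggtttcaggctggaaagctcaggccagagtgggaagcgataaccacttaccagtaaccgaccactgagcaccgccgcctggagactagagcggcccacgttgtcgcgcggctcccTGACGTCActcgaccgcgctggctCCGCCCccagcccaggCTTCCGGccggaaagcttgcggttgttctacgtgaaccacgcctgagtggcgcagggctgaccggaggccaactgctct
Cdc20, chr4:118437294-118437593, minus strand: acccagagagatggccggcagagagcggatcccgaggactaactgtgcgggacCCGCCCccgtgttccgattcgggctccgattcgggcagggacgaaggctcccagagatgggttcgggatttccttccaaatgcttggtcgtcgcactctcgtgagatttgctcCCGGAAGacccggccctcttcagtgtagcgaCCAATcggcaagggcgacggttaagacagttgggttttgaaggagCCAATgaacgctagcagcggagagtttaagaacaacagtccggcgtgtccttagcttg
Ccnb2, chr9:70421505-70421804, minus strand: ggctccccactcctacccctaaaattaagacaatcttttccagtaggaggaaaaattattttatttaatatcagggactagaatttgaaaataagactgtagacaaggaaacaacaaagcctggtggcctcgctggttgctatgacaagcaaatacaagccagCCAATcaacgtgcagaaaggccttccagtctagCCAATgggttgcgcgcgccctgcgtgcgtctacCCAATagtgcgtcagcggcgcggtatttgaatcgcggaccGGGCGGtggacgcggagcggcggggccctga
Cdk2, chr10:128705002-128705301, minus strand: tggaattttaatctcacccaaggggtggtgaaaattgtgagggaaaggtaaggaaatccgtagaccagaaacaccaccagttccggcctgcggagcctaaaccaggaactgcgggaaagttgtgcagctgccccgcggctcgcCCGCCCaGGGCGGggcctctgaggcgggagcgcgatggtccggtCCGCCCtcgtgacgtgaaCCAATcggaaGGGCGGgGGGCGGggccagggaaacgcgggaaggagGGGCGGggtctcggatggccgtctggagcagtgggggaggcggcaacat
Each of the 7 holds a GC box on 1 strand or the other. The printed Orc5 promoter shares no base with its member (chromosome 5, 22549153 to 22549960), and that of Ccnb2 lies only partly within its member. Dyrk1a had the richest promoter, with 54 CpG dinucleotides and 77.0% G or C, and Mcm3 the poorest, with 8 CpG dinucleotides and 48.7% G or C. The letters of the CCAAT box stand in Mcm3, Cdc20, Ccnb2 and Cdk2, and those of the TATA box in Sqstm1.

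The members were mostly narrow peaks at gene starts. Their median width was 653 bp in knockout replicate 1 (range 501 to 3813 bp) and 664 bp in knockout replicate 2 (range 501 to 3307 bp), where 501 bp is the smallest width in any list. In 90 members (17.5%) the peak had the minimum width in both knockout lists, and in 199 (38.6%) it had it in 1 of them. In 48 members (9.32%) it was wider than 1000 bp in both. The narrower of the 2 knockout peaks had a median of 501 bp in the members, against 1337 bp in the 1283 gene-end regions called in all 4 lists, named steady regions here. The 2 knockout peaks of a member shared a median of 55.0% of their joint span. Across the 515 members the Pearson correlation of their log2 widths was 0.44 and the Spearman correlation of their widths 0.33.

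**Figure D1:**
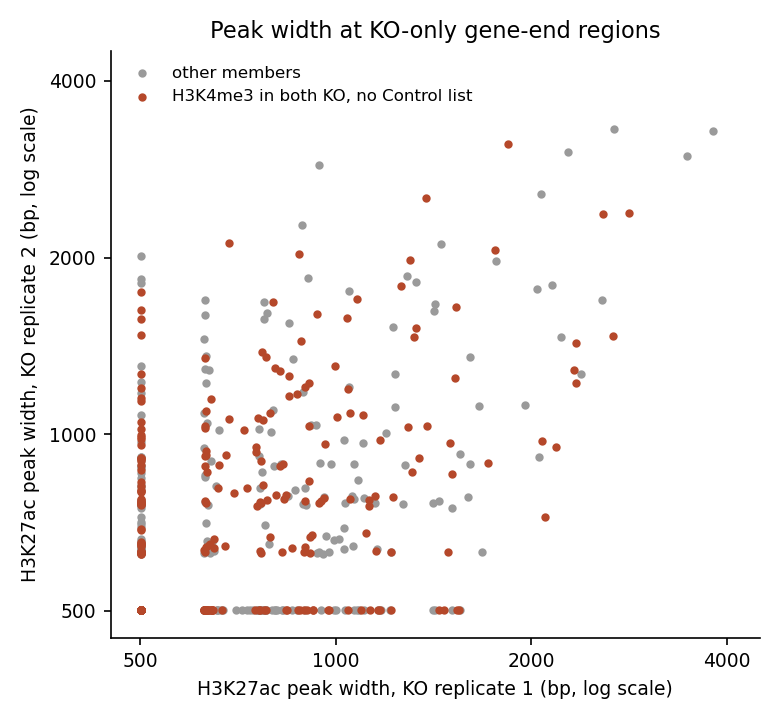
H3K27ac peak width of each of the 515 members in knockout replicate 1 (x axis) and knockout replicate 2 (y axis), in bp on log scales; red points are the 237 members with an H3K4me3 peak in both knockout lists and no Control list, grey points the other members. Many points lie on the lines at the minimum width of 501 bp, and 7 members exceed 2000 bp in both lists.

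The widest members lay at genes of varied roles. Ctbp2, a transcriptional corepressor, had H3K27ac peaks of 3813 and 3289 bp in the knockout lists (chromosome 7, 133121258 to 133125070) and no Control peak in the member. Dyrk1a, a kinase of nuclear and cell cycle proteins, had 3474 and 2973 bp in the knockout lists across its start (chromosome 16, 94568710 to 94572183) and no Control peak there. Sqstm1, the p62 receptor of selective autophagy, had 2073 and 2568 bp in the knockout lists (chromosome 11, 50209976 to 50212543) and no Control peak there. The nearest Control H3K27ac peak lay 592 bp from the member at Ctbp2, 12914 bp from that at Dyrk1a and 655 bp from that at Sqstm1. The other members among the 10 widest lay at Tfcp2l1, Txnl4a, Ddx17, Ahnak, Ubr4, the pair Mcm4 and Prkdc, and Cand1, with a narrower knockout peak between 1771 and 2685 bp.

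A missing Control peak in the member did not always mean that Control acetylation was far away. The nearest Control H3K27ac peak lay a median of 12968 bp from a member, with a range of 10 to 972431 bp. It lay within 1 kb of 70 members (13.6%), within 5 kb of 170 (33.0%) and more than 20 kb from 210 (40.8%). Ddx17, an RNA helicase, had a Control peak 300 bp away and Cand1, a cullin exchange factor, one 207 bp away. For Mbd5, a methyl-CpG-binding domain protein, the nearest was 500571 bp away, and for Orc5, a subunit of the origin recognition complex, 699968 bp. For the 783 knockout-only regions away from gene ends the median distance was 2489 bp.

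The members touched the windows of 625 genes, 2.86% of the 21887 protein-coding genes and 20.3% of the 3079 genes with a gene-end region in both knockout lists. A single gene was touched by 406 members, 2 genes by 105 and 3 or more by 4. For 501 of the 625 genes (80.2%) neither gene end had any Control H3K27ac peak. Counted per gene over both ends together, 630 protein-coding genes (2.88%) had H3K27ac in both knockout lists and no Control list. The remaining 124 (19.8%) had a Control peak at a gene end outside the member. Tfcp2l1, a naive pluripotency transcription factor, is among them: its member lay 603 bp upstream of the gene, the nearest Control peak 11742 bp from the member, and another Control peak at the far end of the gene.

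The rule's limit of 1 kb had wide and narrow regions just inside it and narrow ones just outside. Just inside lay Mesd, at 999 bp with peaks of 2220 and 1462 bp, Sp9, at 981 bp with 501 and 501 bp, and Ephx1, at 975 bp with 1235 and 1267 bp. Just outside lay knockout-only regions at Wasf2, at 1068 bp with 718 and 501 bp, Cables2, at 1104 bp with 501 and 501 bp, and Pcbp1, at 1113 bp with 501 and 501 bp. The gene end itself lay inside 321 members (62.3%). The rule asks for both knockout lists and neither Control list, so with 1 list less it keeps more regions: 1768 without knockout replicate 1, 1790 without knockout replicate 2, 989 without Control replicate 1 and 839 without Control replicate 2. With the wider 50% of each list 335 were kept.

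The gene end at which a member lay was mostly the start. A touched gene could be placed through its promoter entry for 420 members, and 376 of these (89.5%, 95% Wilson interval 86.2 to 92.1%) lay at a start. Other touched genes without a known strand were left out of this placing, so starts at them were not counted. Steady regions lay at a start in 92.7% (90.9 to 94.1%) and the 102 control-only regions, called in both Control lists and no knockout list (1.31% of gene-end regions), in 79.3% (69.3 to 86.6%). These intervals cover counting error only. Only 44 members lay at a transcript end with no known start. Some of the 44 also touched a gene without a known strand, so a start there is possible. Among the 44 was Nanog, a core pluripotency factor, with 1413 and 765 bp in the knockout lists at 692 bp from its end. It had no Control peak in the member. Both Control lists had an H3K27ac peak at the other end of Nanog, so the gene was not acetylated in knockout cells alone. Gata3, a trophectoderm transcription factor, was another, with 823 and 890 bp in the knockout lists, no Control peak in the member and a Control peak 211 bp away.

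The centres of members at starts lay mostly within the gene. Their centre lay a median of 262 bp downstream of the nearest start (quartiles 23.5 and 424 bp), and 76.9% lay downstream. Steady regions had a median of 163.5 bp and 64.0% downstream, and the 65 control-only regions at a start a median of 307 bp and 70.8% downstream. The start itself was inside 74.2% of the members, 96.2% of the steady regions, which were wider, and 53.8% of the control-only regions. A divergent pair of starts was found at 14.6% of members and 15.5% of steady regions.

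**Figure D2:**
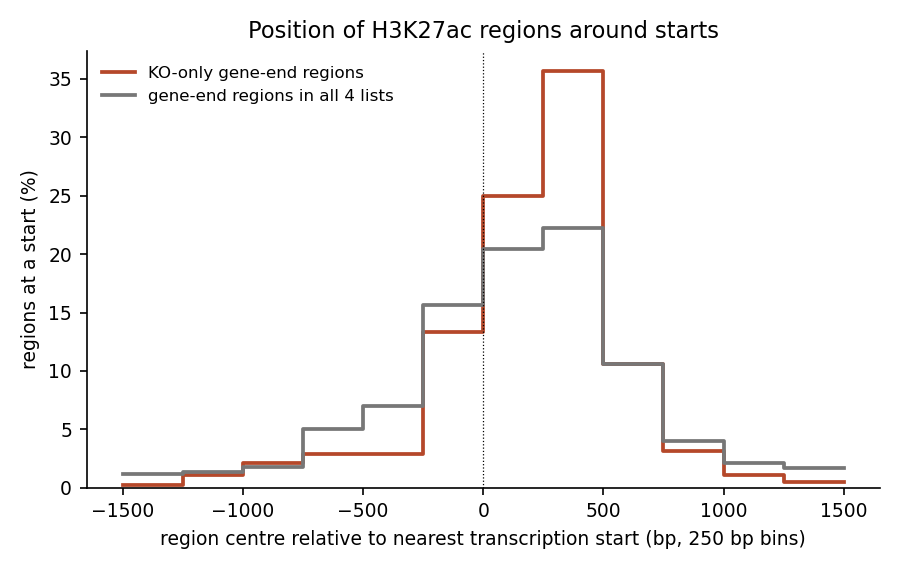
Distance from the nearest transcription start to the region's centre (x axis, bp, positive downstream, bins of 250 bp) as a share of the regions at a start (y axis, %), for members and for steady regions. In the 500 bp after the start lay 60.6% of the members and 42.6% of the steady regions; 5 members and 66 steady regions beyond 1500 bp are not drawn.

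The members' promoters were rich in CpG dinucleotides, as those of steady regions were. Over 300-base promoters the median observed-to-expected CpG ratio was 0.827 for the 376 members at a start, 0.880 for 946 steady promoters, 0.762 for 65 control-only promoters and 0.567 for all 21238 promoters of protein-coding genes. A ratio above 0.6 was found in 85.1% of members, 87.3% of steady, 78.5% of control-only and 47.6% of all promoters. The GC box stood in 71.5% of members, 71.9% of steady and 46.2% of all promoters. The CCAAT box stood in 44.7% of members, 33.6% of steady, 46.2% of control-only and 38.2% of all promoters, and the ETS motif CCGGAAG in 26.1%, 19.7%, 29.2% and 11.6% in the same order. The TATA box was less frequent, with 5.32% of members, 8.25% of steady, 7.69% of control-only and 12.6% of all promoters. The NRF1 motif, the E-box CACGTG, the cAMP response element TGACGTCA and the YY1 motif AAGATGGC stood in 2.39%, 10.6%, 5.32% and 7.18% of members, against 1.90%, 12.9%, 4.55% and 8.77% of steady and 1.33%, 7.84%, 2.24% and 3.05% of all promoters. Both strands were searched, no motif contains another, and these shares are descriptions without a test.

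H3K4me3, a readout the rule did not use, was called at most members in knockout cells and at few in Control cells. A peak touched 71.5% and 68.7% of the members in the 2 knockout lists, against 9.90% and 10.5% in the 2 Control lists. The means were 70.1 ± 1.92% in knockout and 10.2 ± 0.412% in Control (SD, n = 2 each), a difference of 59.9 percentage points. Each knockout list was higher than each Control list, and the exact two-sided permutation test gave p = 0.333, the smallest that 2 lists against 2 allow. Such a p-value reflects the order of the lists and does not measure their spread. Differences between the deposited lists may be technical. The Control H3K4me3 lists were much shorter as a whole, and with the lists of each mark cut to the same number of their widest peaks the difference was 22.7 points.

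The gap between conditions was wider at members than at steady regions. Steady regions had H3K4me3 in 82.8% and 82.3% of cases in the knockout lists, against 39.4% and 42.2% in the Control lists, a difference of 41.7 points. The difference between the 2 differences was 18.2 points (exact permutation p = 0.333, the smallest possible), and 2.42 points (p = 0.667) with lists of equal length. It was 1.84 points without H3K27ac knockout replicate 2 and 3.59 points without H3K27ac knockout replicate 1 (exact permutation p = 1 for each), and 12.2 and 11.2 points without H3K27ac Control replicate 1 or 2. The 786 gene-end regions called in both knockout lists and 1 Control list lay between, with a mean of 77.9% in knockout and 27.2% in Control. Since members were narrower, the same values were also taken within ranges of the narrower knockout H3K27ac width, a split chosen after seeing the data. At 501 bp members averaged 64.7% in knockout and 8.82% in Control, and steady regions 64.6% and 26.2%. Above 1000 bp members averaged 80.2% in knockout and 14.6% in Control, and steady regions 85.9% and 44.9%. The difference between the differences was 17.5 points at 501 bp and 24.6 points above 1000 bp.

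**Figure D3:**
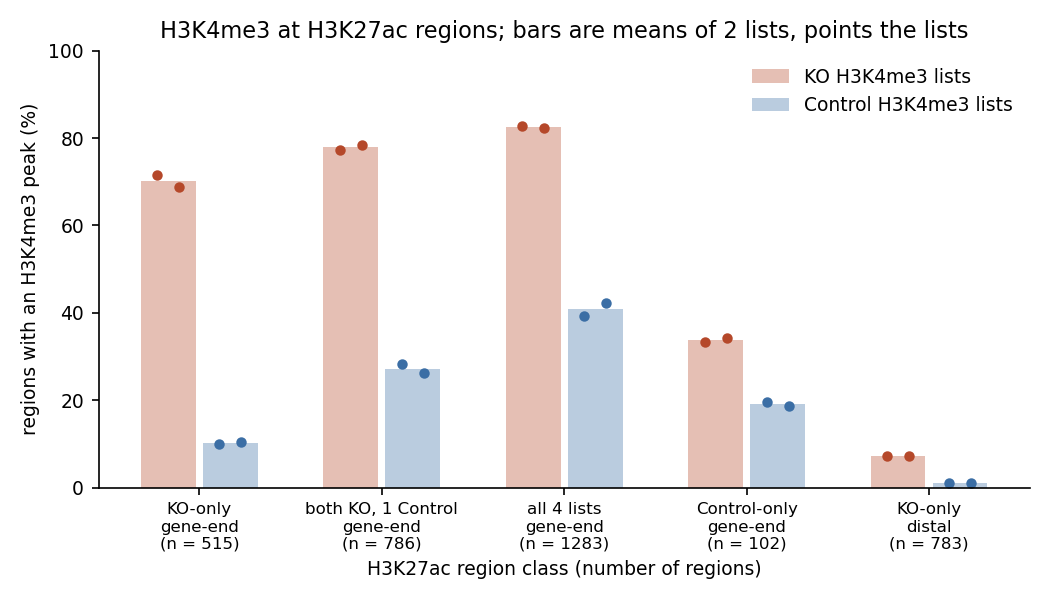
Share of regions touched by an H3K4me3 peak (y axis, %) in classes of H3K27ac region (x axis, with the number of regions); bars are means of the 2 knockout and the 2 Control lists and points are the lists. At members the knockout lists sit at 71.5% and 68.7%, above the Control lists at 9.90% and 10.5%.

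Gene-end position went with H3K4me3. The 783 knockout-only H3K27ac regions away from gene ends had it in 7.28% and 7.28% of cases in the knockout lists, against 1.15% and 1.02% in the Control lists. Members exceeded them by a mean of 36.0 points, in 4 of 4 lists (exact two-sided sign-flip permutation p = 0.125, the smallest that 4 lists allow), and by 19.3 points with lists of equal length. Within the members, those at a start with no known end had H3K4me3 in 79.7% and 77.4% of cases in the knockout lists. In the Control lists they had it in 12.0% and 12.9%. The 44 members at a transcript end with no known start had it in 15.9% and 13.6% in the knockout lists, against 2.27% and 2.27% in the Control lists. Some of the 44, among them members with H3K4me3 in the knockout lists, also touched a gene without a known strand. Control-only regions had it in 33.3% and 34.3% in the knockout lists, against 19.6% and 18.6% in the Control lists. Members minus control-only regions averaged 13.7 points over the 4 lists (exact sign-flip permutation p = 0.5), with members higher in both knockout lists and lower in both Control lists. That mean was -5.41 points without H3K27ac knockout replicate 1 and -7.67 points without H3K27ac knockout replicate 2 (exact permutation p = 0.375 for each), and 5.47 points with lists of equal length.

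H3K4me3 was called in both knockout lists at 319 members (61.9%), against 43.9% of all gene-end H3K27ac regions. The share was higher at steady regions (78.3%) and at gene-end regions called in both knockout lists and 1 Control list (71.5%). H3K4me3 was absent from both Control lists at 237 of the 319 members, 46.0% of all members, against 22.4% of all gene-end H3K27ac regions. With lists of equal length 60 such members were left, and 135 with the wider 50% of each list. Without H3K27ac knockout replicate 1 or 2 there were 548 or 534, and without H3K27ac Control replicate 1 there were 391. The same pattern was found at 31.6% of gene-end regions called in both knockout lists and 1 Control list and at 24.6% of steady regions. It was found at 6.86% of control-only regions and 3.83% of the distant knockout-only regions. All 4 H3K4me3 lists were called at 12 members (2.33%), against 6.99% of all gene-end regions. No list was called at 111 (21.6%), against 38.9% of all gene-end regions. The share with no list was 12.4% at steady regions and 52.0% at control-only regions. It was 15.4% at gene-end regions called in both knockout lists and 1 Control list. No member had H3K4me3 in both Control lists and no knockout list. Called H3K4me3 bases per member averaged 629 and 607 in the knockout lists, against 46.7 and 54.3 in the Control lists, a difference of 567 bases (exact permutation p = 0.333). That difference was 316 bases with lists of equal length, 291 without H3K27ac knockout replicate 1 and 275 without H3K27ac knockout replicate 2.

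The 10 members with the widest knockout-only H3K4me3 had peaks of that mark of at least 1798 bp in both knockout lists. Cnot9, a subunit of the CCR4-NOT deadenylase, had H3K4me3 peaks of 2526 and 2234 bp in the knockout lists and no Control peak, beside H3K27ac of 2330 and 1285 bp in the knockout lists (chromosome 1, 74505826 to 74508155). Mbd5 had H3K4me3 of 2128 and 2407 bp and H3K27ac of 2082 and 973 bp in the knockout lists, and no Control peak of either mark. Ssu72, a phosphatase of the RNA polymerase II tail, had H3K4me3 of 2057 and 2050 bp in the knockout lists and no Control peak. At these 3 members both marks were called in both knockout lists and no Control list. The other 7 lay at Prr3 and Gnl1, Thap2 and Zfc3h1, Camk2n1, Eif2b4 and Snx17, Srsf11 and Lrrc40, Psme3ip1 and Rspry1, and Pgd, where the narrower H3K4me3 knockout peak was 1798 to 2553 bp wide. In 181 of the 319 members with H3K4me3 in both knockout lists (56.7%), the narrower H3K4me3 peak was wider than the wider H3K27ac peak.

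A few members had H3K4me3 in Control cells too. Ctbp2 had H3K4me3 peaks of 2573 and 2412 bp in the knockout lists, against 501 and 801 bp in the Control lists. Sgpl1, the lyase of sphingosine-1-phosphate, had 1884 and 1473 bp in the knockout lists, against 849 and 857 bp in the Control lists. Hspa5, the endoplasmic reticulum chaperone BiP, had 2431 and 1922 bp in the knockout lists, against 501 and 501 bp in the Control lists. In each of these 3 members every knockout H3K4me3 peak was wider than either Control peak. Ing1, a reader of H3K4me3, had 2148 and 2162 bp in the knockout lists, against 1115 and 501 bp in the Control lists, and the member at Dolk and Nup188 had 1982 and 1663 bp, against 501 and 501 bp. Where H3K4me3 was called in both knockout lists, its median width was 1179 and 1083 bp in those lists, and 501 bp in each Control list at the 43 and 51 of these members called there.

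Genes of DNA replication and the cell cycle had the highest share of members among the lists with at least 10 genes acetylated in both knockout lists. Of 42 replication genes 9 (21.4%) had a member, against 2.86% of all protein-coding genes, and these were 9 of the 19 (47.4%) with a gene-end region in both knockout lists, against 20.3% of all genes. Of 47 cell cycle and mitosis genes 6 (12.8%) had a member, which were 6 of 13 (46.2%) with a region in both knockout lists. These shares are descriptions, and the lists were not tested as sets.

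Mcm3, a subunit of the replicative helicase, had H3K27ac of 628 and 1033 bp in the knockout lists and no Control peak (chromosome 1, 20819568 to 20820600). Its H3K4me3 peaks were 1373 and 1126 bp in the knockout lists, with none in the Control lists. Mcm4, another helicase subunit, shares its member with Prkdc, the catalytic subunit of DNA-dependent protein kinase, and had H3K27ac of 2153 and 1793 bp in the knockout lists and no Control peak. H3K4me3 there was called in knockout replicate 1 alone, at 2467 bp. Cdc45, which joins the helicase at firing origins and shares its member with Ufd1, had H3K4me3 of 1003 and 635 bp in the knockout lists and none in the Control lists. Orc5 differed, with H3K4me3 of 1147 bp in knockout replicate 1 and 631 bp in Control replicate 1 and none in the other list of either condition. The other 5 replication genes were named after their values were seen: Pcna, Rrm2, Gins1, Gins4 and Pole. Pcna, the polymerase clamp, shares its member with Cds2. H3K27ac there was 1525 and 1249 bp and H3K4me3 1760 and 1918 bp in the knockout lists, with no Control peak of either mark. Gins1, by contrast, had H3K27ac of 501 and 501 bp in the knockout lists and no H3K4me3 in any list.

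Cdk2, the kinase of the G1 to S transition, had H3K27ac of 801 and 1682 bp in the knockout lists and no Control peak (chromosome 10, 128703891 to 128705572). Its H3K4me3 peaks were 1291 and 1593 bp in the knockout lists, with none in the Control lists. Ccnb2, a mitotic cyclin, Rb1, the retinoblastoma protein, and Cdc20, an activator of the anaphase-promoting complex, had H3K4me3 in both knockout lists and no Control list as well, at widths of 758 to 1355 bp. The last of the 6 genes, Cenpe and Wee1, were named after their values were seen. Cenpe, a kinetochore motor, had H3K4me3 of 1217 and 1253 bp in the knockout lists and none in the Control lists, while Wee1, the kinase that holds back mitosis, had 1521 and 1771 bp in the knockout lists and 501 bp in Control replicate 2. H3K4me3 was thus called in both knockout lists and no Control list at 5 of the 6 cell cycle genes and at 4 of the 9 replication genes, against 290 of the 625 genes with a member.

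**Figure D4:**
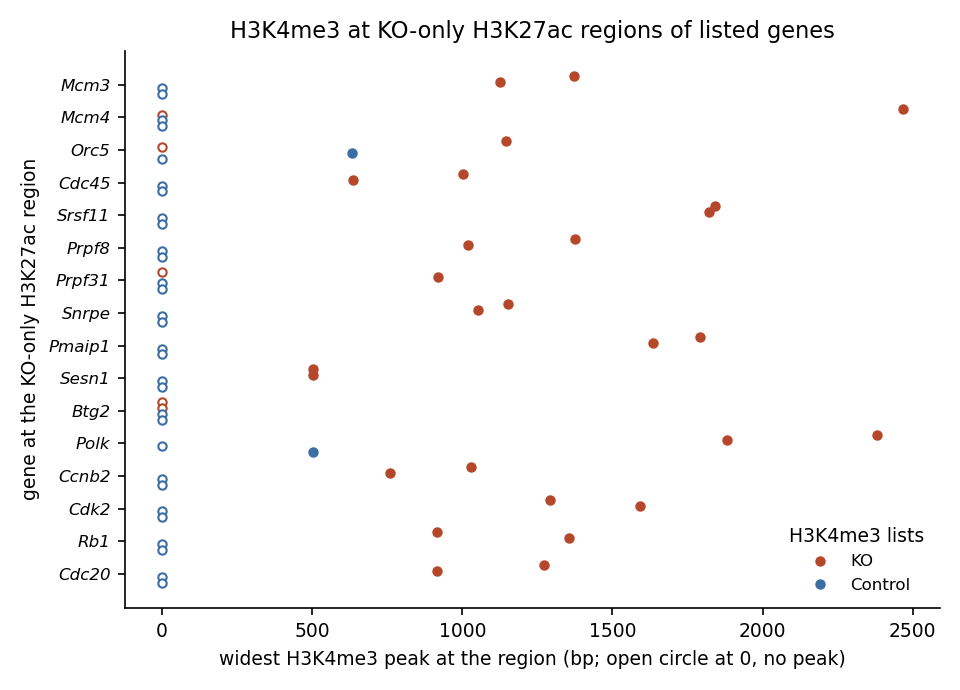
Width of the widest H3K4me3 peak (x axis, bp) at the members of up to 4 genes from each of the replication, splicing, p53 and cell cycle lists, taken in list order (y axis); filled points are peaks in the 2 knockout and the 2 Control lists and open circles at 0 are lists with no peak. Among the genes drawn, Control peaks stand at Orc5, with 631 bp, and Polk, with 501 bp; Wee1 and Rrm2, listed but not drawn, had 501 bp in Control replicate 2, and Snrpg 501 bp in Control replicate 1.

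Splicing genes were often acetylated in both conditions. Of 58 listed factors 47 had a gene-end region in both knockout lists and 31 had a steady region, and 7 had a member, 14.9% of the 47. Prpf8, the core scaffold of the spliceosome, had H3K27ac of 825 and 631 bp and H3K4me3 of 1375 and 1019 bp in the knockout lists and no Control peak of either. Snrpe, a core protein of spliceosomal snRNPs, had H3K4me3 of 1153 and 1053 bp in the knockout lists and none in the Control lists. Of 26 p53 target genes 4 had a member, 22.2% of the 18 with a region in both knockout lists, close to the 20.3% of all genes. Pmaip1, which encodes the pro-apoptotic protein NOXA, had H3K27ac of 1319 and 1463 bp and H3K4me3 of 1793 and 1634 bp in the knockout lists. Neither mark had a Control peak in the member, and a Control H3K27ac peak lay 172 bp away. Btg2, an antiproliferative gene, had H3K27ac of 802 and 884 bp in the knockout lists and no H3K4me3 in any list. Sesn1, a stress-induced regulator of growth signalling, shares its member with Cep57l1. Both marks there were at the minimum of 501 bp in both knockout lists. Polk, a translesion polymerase, shares its member with Cert1, whose start is the nearest. H3K4me3 at that member was 2380 and 1880 bp in the knockout lists and 501 bp in Control replicate 2.

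Many cytosolic ribosomal protein genes were acetylated in both conditions, and they were rarely members. Of 83 cytosolic ribosomal protein genes 65 had a region in both knockout lists and 58 a steady region, and 1 had a member, Rpl10, with H3K27ac of 2576 and 1693 bp in the knockout lists and no Control peak. Mitochondrial ribosomal protein genes had 4 members among 20 genes with a region in both knockout lists (20.0%), close to the 20.3% of all genes, and proteasome genes 3 of 15 (20.0%). Zinc finger Zfp genes had 16 of 73 (21.9%) and ubiquitin ligase and peptidase genes 15 of 73 (20.5%). Neither glycolysis genes (0 of 7) nor H3K4 methylases and demethylases (0 of 8) had a member.

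**Figure D5:**
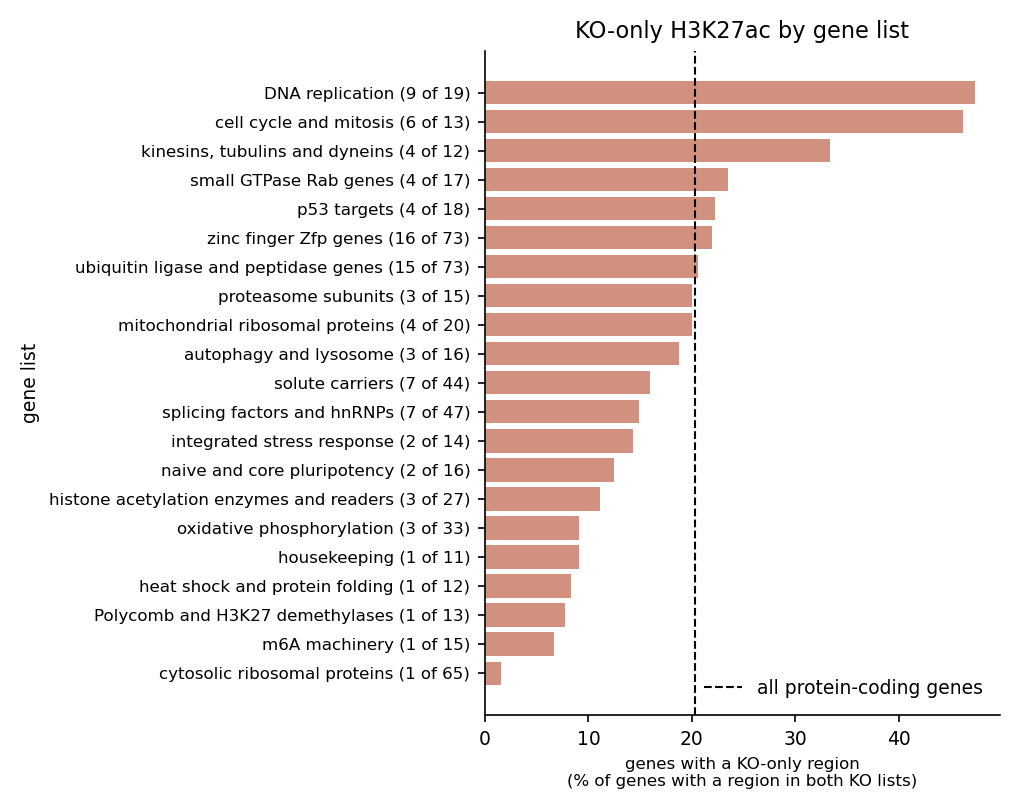
Share of genes with a member (x axis, %) among the genes of each list (y axis) that had a gene-end H3K27ac region in both knockout lists, for lists with at least 10 such genes; counts stand beside each name and the dashed line is the 20.3% of all protein-coding genes. DNA replication, with 47.4%, and cell cycle, with 46.2%, stand highest and cytosolic ribosomal proteins lowest.

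The 5 lists on cell state and chromatin that follow had members at shares above the 2.86% of all genes. Among their genes acetylated in both knockout lists their shares were below the 20.3% of all genes, apart from the trophectoderm markers. Nanog and Tfcp2l1 were the members among 25 naive and core pluripotency genes (8%, and 12.5% of the 16 with a region in both knockout lists), and neither had H3K4me3 in any list at the member. Igf2bp2, a reader of N6-methyladenosine, was the sole member among 21 genes of the m6A machinery (4.76%, and 6.67% of 15), with H3K27ac of 626 and 636 bp and H3K4me3 of 1791 and 1302 bp in the knockout lists and no Control peak of either. Among 52 genes of histone acetylation there were 3 (5.77%, and 11.1% of 27): Ing1, Ing5 and Hdac1, a histone deacetylase with H3K4me3 of 1295 and 1342 bp in the knockout lists and none in the Control lists. Rbbp4, a histone-binding subunit of PRC2, was the sole one of 33 Polycomb genes (3.03%, and 7.69% of 13) and shares its member with Zbtb8os. H3K4me3 there was 1545 and 1353 bp in the knockout lists and 501 bp in Control replicate 1. Of the 10 trophectoderm markers Gata3 and Tfap2c had members (20.0%), which were the 2 of this list with a region in both knockout lists, and the part of other cell types in these calls was not tested.

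H3K27me3 was rare at members in both conditions. It touched 8 (1.55%) and 7 (1.36%) of them in the knockout lists, against 0 and 4 (0.777%) in the Control lists. The difference was 1.07 points (exact permutation p = 0.333), and was 0 with the wider 50% of each list. It was 2.97 and 3.27 points without H3K27ac knockout replicate 1 or 2, and 0.680 points without H3K27me3 Control replicate 1. At least 1 of the 4 lists had it at 13 members (2.52%), against 5.45% of all gene-end H3K27ac regions. The share was 0.0779% at steady regions, 1.53% at gene-end regions called in both knockout lists and 1 Control list, and 1.96% at control-only regions. At gene-end regions called in 1 knockout list and no Control list it was 9.80%. Sp9, a developmental transcription factor (chromosome 2, 73272907 to 73273886), had H3K27me3 peaks of 3036 and 5076 bp in the knockout lists, against none in Control replicate 1 and 630 bp in Control replicate 2. The member at Mmp25, a membrane-bound metalloproteinase, and Bicdl2 (chromosome 17, 23644692 to 23645644) had 1609 and 1705 bp in the knockout lists and no Control peak. These were the members with H3K27me3 in both knockout lists, and neither had H3K4me3 in any list.

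Counted per gene, H3K4me3 accompanied the acetylation at many of the same genes and H3K27me3 at few. Of the 625 genes with a member, 295 (47.2%) had H3K4me3 at a gene end in both knockout lists and no Control list, against 13.5% of all protein-coding genes. For H3K27me3 the same pattern was found at 5 of the 625 (0.8%), against 2.43% of all. H3K4me3 was called at no gene end in any list at 82 of the 625 genes (13.1%) and in all 4 lists at 16 (2.56%). The same shares over all protein-coding genes were not counted.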

How the data were processed

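Peak lists of 12 ChIP-seq libraries were used, 2 Mettl14 knockout and 2 Mettl14 Control for each of 3 marks, grouped by mark, genotype and replicate number in the titles. The 4 inputs and the Mettl3 knockout named in the design were not analysed here. The submitters' processing notes name build mm10 and the tools Bowtie2 2.4.1, Trimmomatic 0.38, HOMER, SAMtools and CASAVA. The sources used here do not give the peak caller, its settings, or whether inputs and spike-in reads were used.

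The authors deposited 1 BED list per library, called separately, with start and end positions. Its deposited score column is the constant 1 and was not used. Peak width stood in for strength, since no height, read number or p-value was given.

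Peaks of the 4 H3K27ac lists were merged where they shared at least 1 bp, and another mark counted as present where a peak shared at least 1 bp. Gene spans and promoters came from RefSeq (GRCm38.p6). Strand was taken from the promoter entries, which matched 17492 of 21887 protein-coding genes. Shares of regions were compared over lists with the exact two-sided permutation test, or a sign-flip test over the 4 lists, in Python 3.11.15 with pandas 2.3.3, NumPy 2.4.6 and SciPy 1.17.1. The counting was tested on simulated data.

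Named genes were the 10 widest members by the narrower knockout peak, the 10 widest with knockout-only H3K4me3, members with H3K27me3 in both knockout lists, up to 5 with H3K4me3 in all 4 lists, the 3 nearest the window limit on each side, and up to 4 per gene list in list order. Predicted genes were not named. The members and the 33 lists were chosen with earlier results of these data known. Other windows, merging gaps, width limits, equal list lengths and leaving out each library were tried as alternatives.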

Additional observations from a re-analysis of the deposited data

Results flagged for a closer look

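The comparison of members with control-only gene-end regions in H3K4me3 went opposite ways in the 2 conditions. Members exceeded control-only regions by a mean of 36.3 percentage points in the knockout lists and stood at a mean of -8.92 points relative to them in the Control lists. The 2 values differed by 45.2 points (exact two-sided permutation p = 0.333, the smallest that 2 lists against 2 allow), and both lists of each condition had the sign of its mean. The 2 classes were chosen by opposite H3K27ac calls in these conditions, and how far that choice shapes the contrast was not tested. The Control H3K4me3 lists were also shorter, and the 45.2 points were not recomputed with lists of equal length.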

How the results depend on the processing

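Of the values recomputed under alternatives 119 were counted as unchanged, 14 moved and 2 reversed. Counts and the start share were counted as unchanged when they stayed near the reported value. A tested difference was counted so unless its sign reversed, since no exact permutation test over so few lists could reach p = 0.05. Those counted as unchanged thus include large falls, such as from 18.2 to 1.84 points beyond steady regions. The H3K27me3 difference fell from 1.07 to 0 points with the wider 50% of each list and was also counted as unchanged. The cause of these changes was not tested except where the rule itself fixes it. Without 1 library in turn, the members numbered 839 to 1790, since 1 list less is asked for. Leaving out libraries gave H3K4me3 differences of 42.5 to 61.3 points at members, 1.84 to 19.3 points beyond steady regions, 26.0 to 45.0 points above distant regions and -7.67 to 30.5 points relative to control-only regions. The last reversed to -5.41 without H3K27ac knockout replicate 1 and -7.67 without replicate 2. The ranges were 267 to 548 members with knockout-only H3K4me3, 84.1 to 91.3% at a start, 275 to 612 H3K4me3 bases, and 0.680 to 3.27 points for H3K27me3.

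The wider 50% of each list left 335 members, of which 135 had knockout-only H3K4me3, and 94.2% lay at a start. The 500 bp window gave 92.3% at a start, and lists of equal length gave 60 members with knockout-only H3K4me3. Windows of 500 and 2500 bp gave 462 and 590 members. In choices added after seeing the data, the H3K4me3 difference was 65.0 points in members over 501 bp in both knockout lists, 65.1 in members more than 5 kb from a Control peak and 65.2 at starts.

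The labels share replicate numbers and name no shared culture. With the replicate number as a block (exact sign-flip permutation over 2 pairs, p = 0.5 each, the smallest possible), the differences were 59.9, 1.07 and 18.2 points and 567 bases. The depth behind each list is unknown, so a missing peak may be a weak one.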

Other observations

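Members were spread over the chromosomes, from 3.97% of gene-end H3K27ac regions on chromosome 6 (15 of 378) to 9.13% on chromosome 16 (24 of 263). Of 30 genes of the integrated stress response 2 had a member (6.67%, against 2.86% of all protein-coding genes), 14.3% of the 14 with a region in both knockout lists, against 20.3% of all genes. Nupr1, a stress-induced chromatin protein, had H3K27ac of 1150 and 763 bp in the knockout lists, no Control peak in the member and a Control peak 464 bp away. Its H3K4me3 was called in knockout replicate 1 alone, at 756 bp. Mthfd2, an enzyme of mitochondrial one-carbon metabolism, shares its member with Mob1a, whose start is the nearest. H3K27ac there was 501 and 651 bp in the knockout lists, with H3K4me3 of 501 bp in knockout replicate 2 alone. Among genes of the lysosome, Hexa, a subunit of beta-hexosaminidase, shares its member with Tmem202. H3K4me3 there was 855 and 1104 bp in the knockout lists, with none in the Control lists. Tfe3, a transcription factor of lysosomal genes, had 915 and 1229 bp in the knockout lists, against 501 and 501 bp in the Control lists.

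Hairpins of 4 microRNAs lay inside members: Mir484 at Marf1 (chromosome 16, 14159626 to 14159692), Mir5131 at Ddhd1, Mir3077 at Sap18 and Mir7075 at Terf2. These genes were named after their positions were seen, and no microRNA was measured in these libraries.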
